A study of Strongylocentrotus intermedius with 6 samples.

Results

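Translation factors and tRNA ligases, the proteins that load amino acids onto tRNAs and carry the ribosome through initiation, elongation and release, were followed at the transcript level in coelomocytes of the sea urchin Strongylocentrotus intermedius. Coelomocytes are free cells of the body cavity that carry out immune defence. Members were the coding gene models (identifiers starting with ZJQ) whose deposited description names a eukaryotic translation initiation factor, an elongation factor, a tRNA ligase, a peptide chain release factor or a polyadenylate-binding protein. Descriptions naming transcription, RNA polymerase or a ribosomal protein were left out. The rule used names alone and no measured value, and it found 106 of 22969 coding models, in a table of 30559 gene models. By their names, 93 of the 106 were factors, ligases or poly(A)-binding proteins themselves. The rest were 6 kinases or binding proteins of the factors, 2 partners of the poly(A)-binding proteins and 5 proteins of another process.

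Coelomocyte RNA was sequenced at ZT12 (3 libraries) and at ZT0 (3 libraries), both under the regime labelled LD. ZT stands for zeitgeber time, by convention the hours since lights-on, and LD for a cycle of light and dark. Light hours, strain, age and genotype of the animals are not stated in the labels. The only comparison the labels give is ZT12 against ZT0, that is, 2 times of day. Symbols such as Aars1 or EEF1A2 were assigned by the authors after genes of other species, so the roles given here are those of the named relatives.

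The libraries held 20229918 to 24368884 counts. The labels do not say whether they came from separate animals, so the tests measure only the spread between these samples, which may be technical. The labelled cell type was checked against names typical of coelomocytes. Echinoidin, scavenger receptor cysteine-rich, complement C3, major yolk protein, profilin and gelsolin genes were present, and amassin, transglutaminase and coactosin matched no name. A name without a match does not show that the gene is absent. Some of these were uneven between libraries, with major yolk protein at 29.9 to 511 CPM and echinoidin at 3278 to 10060 CPM. Scavenger receptor cysteine-rich genes lay at 1837 to 2173 CPM. The 73 models of that list summed to 15340 to 20030 CPM at ZT12 and 19080 to 21650 CPM at ZT0, and 5 of them were at 0 in all libraries. Among markers of other sources, 18 skeletogenic models (spicule matrix and similar names) summed to 94.9 to 185 CPM at ZT12 and 416 to 843 CPM at ZT0, with 1 model at 0 in all libraries. The part of this shift in the members' values was not tested. Lists for gut (69 models), pigment cells (2), muscle (3), nerve (28) and gonad (7) overlapped in their summed CPM between times. Gut models summed to 4124 to 4397 CPM at ZT12 and 4192 to 5310 CPM at ZT0. Nerve models summed to 2079 to 2510 CPM at ZT12 and 2208 to 2341 CPM at ZT0. For pigment cells the sums were 934 to 1426 CPM at ZT12 and 1025 to 1124 CPM at ZT0. The muscle list reached at most 312 CPM in any library, and the gonad list 189.5 CPM. In bulk RNA, fewer cells of a type and less RNA per cell cannot be told apart.

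Translation starts when the initiation factors bring the initiator tRNA and the small ribosomal subunit to the capped end of an mRNA, where eIF4 proteins bind the cap and eIF2 with eIF3 prepare the subunit for scanning. Elongation factors then deliver each aminoacyl-tRNA and move the ribosome along, and release factors free the finished chain at a stop codon. Each aminoacyl-tRNA comes from a tRNA ligase (aminoacyl-tRNA synthetase) specific for its amino acid, with separate sets serving the cytosol and the mitochondrion. Many cells adjust protein output by acting on these proteins, through kinases that phosphorylate eIF2 or eEF2 and through proteins that block eIF4E, so a steady transcript says nothing of the factor's activity.

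None of the translation genes passed the test between times. By edgeR's quasi-likelihood F test, adjusted by Benjamini-Hochberg over all genes, 0 of the 104 tested members reached an adjusted p under 0.05, beside 24 of 18456 genes tested, or 0.13%. At an unadjusted p under 0.05 stood 2 members, both higher at ZT12, beside 3.44% of all tested genes on the higher side, 3.87% on the lower side and 7.31% in either direction. A member of this pair, WARS1 ZJQ021970, passed the filter on low counts through its ZT12 libraries alone, and the other 103 passed in all libraries of both times. DESeq2 also called 0 members, beside 0.901% of all genes, with 4 members at an unadjusted p under 0.05, beside 6.27% of all genes. Limma-voom called 0 members and 0 genes in all, with 0 members at an unadjusted p under 0.05, beside 5.84% of all tested genes. The untested members were a second Eif5 model (ZJQ016116), with a single count in all libraries together, and a glycine ligase model (GlyRS, ZJQ006317) at 0.214 to 0.757 CPM.

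Differences were also small in size. Log2 fold changes (ZT12 minus ZT0) of the tested members had a median of -0.05, beside 0.00 over all tested genes, and their absolute values had a median of 0.164 against 0.315 over all tested genes. For 66 members (63.5%) the 95% interval of the log2 fold change lay within 1 either side of 0, that is, within a 2-fold change in either direction, as it did for 32.5% of all tested genes. Many members are abundant, which narrows such intervals. Among tested members at or above the members' own median of 7.7 FPKM, 45 of 52 (86.5%) had an interval that narrow, and among all 5562 tested genes at or above that level 64.3% did. An absolute log2 fold change above 1 was found for 3 members, beside 13.5% of all tested genes. These were a low-level tryptophan ligase model (WARS1, ZJQ021970), the mitochondrial leucine ligase LARS2 and Nelf-E, which is not a translation factor.

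The direction of such small differences depended on the scaling. With library sizes scaled by edgeR's TMM method, 43 members lay above 0 and 61 below. With plain library sizes, which shifted the median of all tested genes to 0.12, the members' median was 0.07, with 68 above 0 and 36 below. Relative to the median of all genes the members stood at -0.05 under both. Values per library are therefore given below mostly as CPM on TMM-scaled library sizes (scaled CPM). Means by time and levels of different genes are given as the deposited FPKM, which corrects for length but uses plain library sizes. For 25 of the 104 tested members the FPKM mean was higher at ZT12 while the scaled log2 fold change was below 0, at -0.12 to -0.00 and smaller than its SE in all 25. Whether the libraries of the times overlap, and every log2 fold change, rest on scaled CPM.

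**Figure D1:**
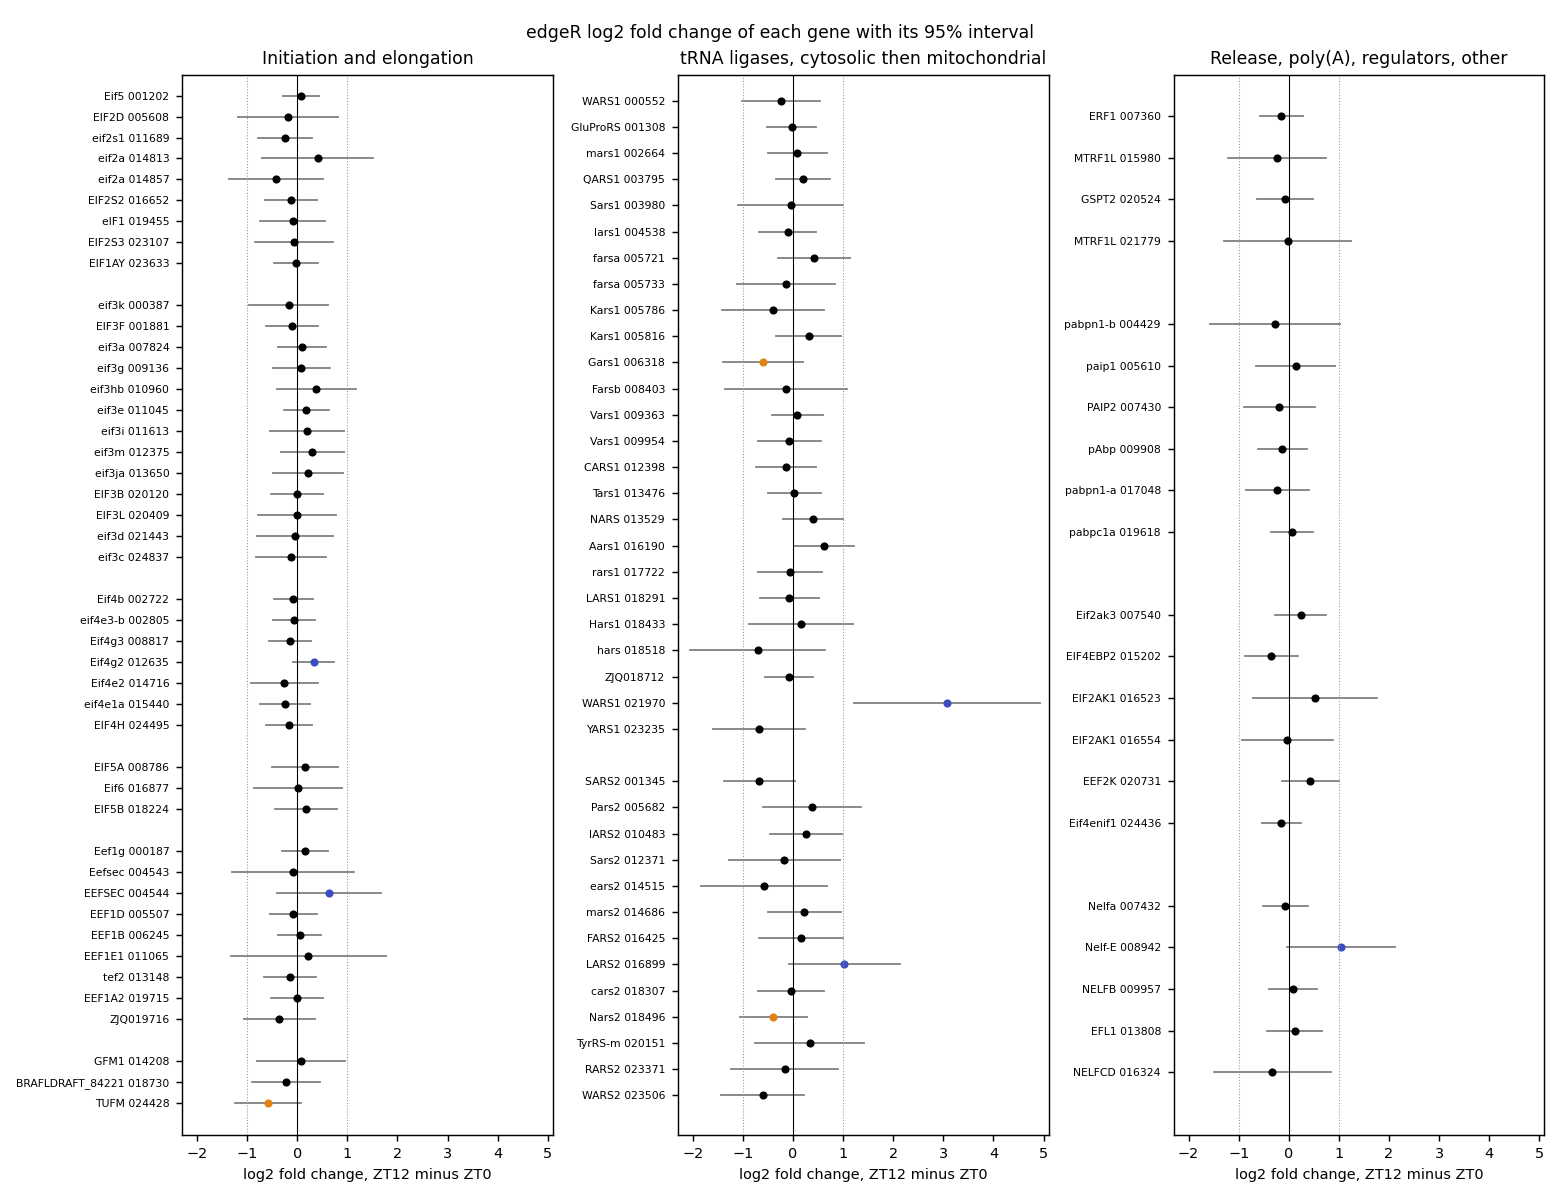
Log2 fold change (ZT12 minus ZT0, edgeR, TMM-scaled) of 103 tested genes, as points with their 95% intervals; dotted lines mark a 2-fold change either way. Points are blue where all ZT12 libraries lay above all ZT0 libraries (5 genes), orange where all lay below (3 genes) and black otherwise, and numbers after symbols are the digits of the ZJQ identifier. For 90 of the 103 genes the point lies within 0.5 of 0, and the second tryptophan ligase model (WARS1), at 3.07, stands farthest out.

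As a whole the members took 2.79, 2.59 and 2.39% of the counts at ZT12 (libraries 1 to 3) and 2.43, 2.49 and 2.49% at ZT0 (libraries 1 to 3). The mean share was 2.59 ± 0.20% at ZT12 and 2.47 ± 0.03% at ZT0 (SD, n = 3 each), with p = 0.5 in an exact two-sided permutation test over libraries, whose smallest possible p is 0.1. The ZT12 libraries thus spanned the ZT0 values and varied more among themselves. Levels were uneven across the set. The 4 most abundant members, EEF1A2, tef2, a second elongation factor 1-alpha model and pabpc1a, supplied 67.4 to 70.7% of the members' counts in every library, while 42 members averaged at least 10 FPKM and 4 averaged under 1 FPKM. The median tested member stood at 7.7 FPKM, beside a median of 1.42 FPKM over all coding models.

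**Figure D2:**
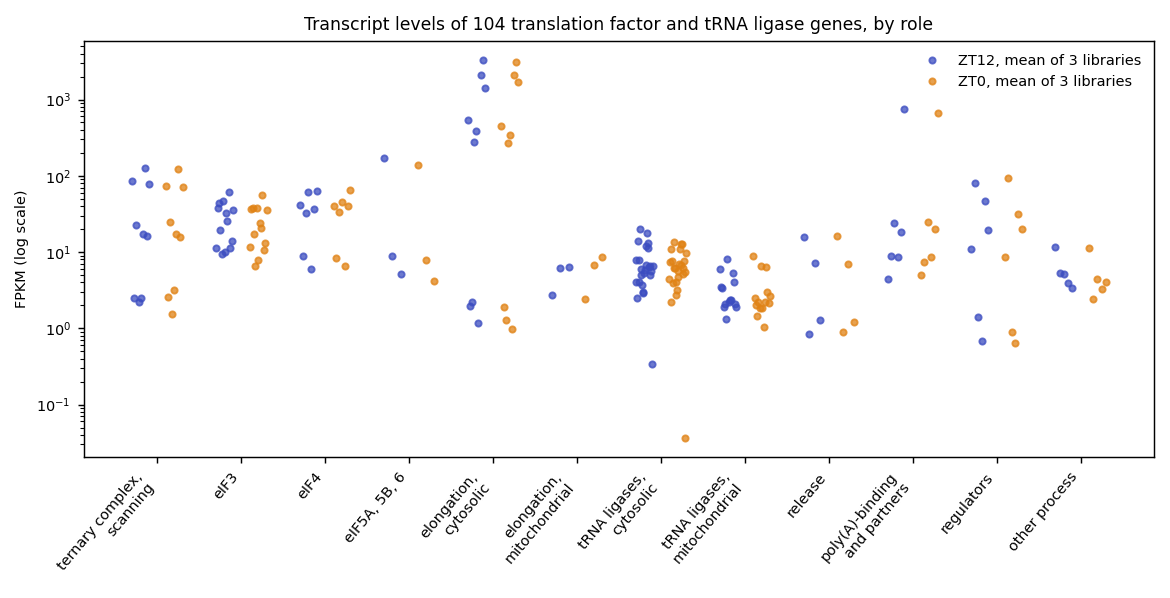
Mean FPKM (log axis) of each tested gene at ZT12 (blue) and ZT0 (orange), 3 libraries each, grouped by role. Cytosolic elongation factors hold the highest levels, up to 3332 FPKM at ZT12 and 3084 FPKM at ZT0, and mitochondrial tRNA ligases lie between 1.3 and 8.2 FPKM at ZT12 and between 1.1 and 8.9 FPKM at ZT0.

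Among the factors that bring the initiator tRNA to the ribosome and select the start codon, none of the 9 tested passed the test, and log2 fold changes ran from -0.42 to 0.41 with a median of -0.09. The alpha, beta and gamma subunits of eIF2, the GTPase that carries the initiator tRNA, were at near-equal levels. The alpha subunit gene eif2s1 (ZJQ011689), whose product is the target of the eIF2 kinases, averaged 22.7 ± 3.6 FPKM at ZT12 and 24.6 ± 3.1 FPKM at ZT0. The beta subunit gene EIF2S2 (ZJQ016652) averaged 17.1 ± 3.4 FPKM at ZT12 and 17.2 ± 1.7 FPKM at ZT0, and the gamma subunit gene EIF2S3 (ZJQ023107) 16.5 ± 6.1 FPKM at ZT12 and 15.9 ± 2.4 FPKM at ZT0 (SD, n = 3 each), with scaled log2 fold changes of -0.24, -0.12 and -0.07 in that order of subunits. All 3 were lowest at ZT12 in library 3, where their FPKM summed to 41.8, against 64.5 and 62.6 in the other ZT12 libraries and 53.0 to 61.6 at ZT0.

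The start-site selection factors were several times more abundant than eIF2. The gene for eIF1 (ZJQ019455), which keeps the scanning ribosome from stopping at wrong codons, averaged 128 ± 30 FPKM at ZT12 and 124 ± 33 FPKM at ZT0, with a scaled log2 fold change of -0.09 (SE 0.28). That for its partner eIF1A (symbol EIF1AY, ZJQ023633) averaged 77.0 ± 9.2 FPKM at ZT12 and 71.8 ± 5.0 FPKM at ZT0, with one of -0.02 (SE 0.19). Eif5 (ZJQ001202), the GTPase activator of eIF2, was among the steadiest members. It had 240.5, 260 and 238 scaled CPM at ZT12 and 239.5, 215 and 246 scaled CPM at ZT0, with a log2 fold change of 0.08 (SE 0.16). Its libraries overlapped and the highest exceeded the lowest 1.21-fold. The factors used outside the main route were scarce. EIF2D (ZJQ005608), linked in mammals to reinitiation, averaged 2.5 FPKM at ZT12 and 2.6 FPKM at ZT0, and 2 models named eIF2A, a protein distinct from the eIF2 alpha subunit, averaged 2.2 and 2.5 FPKM at ZT12 and 1.5 and 3.2 FPKM at ZT0.

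The exchange factor that recharges eIF2 with GTP, eIF2B, is described without the word eukaryotic and so fell outside the rule. Its 5 subunit genes, added after their names were seen, averaged 3.2 to 8.5 FPKM over the 6 libraries, 0 of 5 passed the test and their log2 fold changes ran from -0.31 (Eif2b3) to 0.47 (eif2b2).

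All 13 subunits of eIF3, the large scaffold that holds the small ribosomal subunit and the mRNA together, had a tested gene. None passed the test, and their log2 fold changes spanned only -0.17 (eif3k) to 0.38 (eif3hb), with 12 of 13 intervals within a 2-fold change either way. The subunits' levels differed more among themselves than between times. EIF3B (ZJQ020120), one of the core subunits, had the highest mean, 58.5 FPKM over the 6 libraries, and the genes of eIF3i (eif3i, ZJQ011613) and eIF3h (eif3hb, ZJQ010960) the lowest, 8.9 and 8.0 FPKM, a 7.3-fold range. A single library stood out. In ZT12 library 1 the summed FPKM of the 13 genes was 449. It was 303 and 322 in the other ZT12 libraries and 324, 307 and 320.5 at ZT0 (libraries 1 to 3), and 11 of the 13 genes had their highest scaled CPM there. The other ZT12 libraries lay beside the ZT0 ones, so the times overlapped for every subunit.

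**Figure D3:**
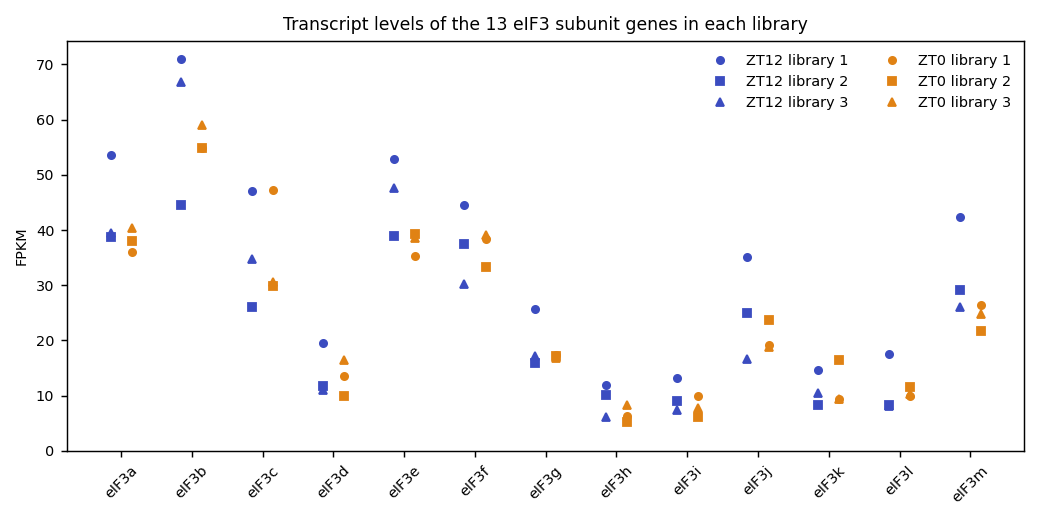
FPKM of the 13 eIF3 subunit genes in each library, with ZT12 in blue to the left and ZT0 in orange to the right of each tick; circles, squares and triangles are libraries 1, 2 and 3 of a time. The blue circle, ZT12 library 1, is the highest blue point for all 13 genes, and the other ZT12 libraries lie in or near the range of the ZT0 libraries.

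The eIF4 genes, whose products bind the cap, bridge it to the ribosome and assist the unwinding helicase, were the steadiest group by spread. Their median SD of log2 CPM among libraries of a time was 0.160, against 0.318 over all tested members, and 7 of 7 intervals lay within a 2-fold change either way. EIF4H (ZJQ024495), a cofactor of the helicase, averaged 63.5 ± 5.7 FPKM at ZT12 and 65.2 ± 7.6 FPKM at ZT0. Its fellow cofactor Eif4b (ZJQ002722) averaged 40.9 ± 3.0 FPKM at ZT12 and 39.7 ± 1.6 FPKM at ZT0, with a scaled log2 fold change of -0.08 (SE 0.17). Of the cap-binding proteins, eif4e1a (ZJQ015440), the general form, averaged 37.2 ± 5.4 FPKM at ZT12 and 40.4 ± 5.0 FPKM at ZT0, the class 2 gene Eif4e2 (ZJQ014716), in mammals a repressor of bound mRNAs, 6.0 ± 1.1 FPKM at ZT12 and 6.6 ± 0.9 FPKM at ZT0, and the class 3 gene eif4e3-b (ZJQ002805) 8.8 ± 1.0 FPKM at ZT12 and 8.4 ± 0.05 FPKM at ZT0 (SD, n = 3 each). Scaled log2 fold changes of these cap-binding genes were -0.24, -0.26 and -0.06.

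The scaffold genes of this group went in opposite directions without passing the test. Eif4g2 (ZJQ012635), the relative of the scaffold that in mammals lacks the eIF4E-binding part, had 185, 161 and 161 scaled CPM at ZT12 and 122, 155 and 128 scaled CPM at ZT0. All ZT12 libraries lay above all ZT0 libraries, as for 5.84% of all tested genes, with ZT0 library 2 close below ZT12. The log2 fold change was 0.33 (SE 0.18, edgeR adjusted p = 0.737). Eif4g3 (ZJQ008817), a scaffold that binds eIF4E, had 270, 250 and 249.5 scaled CPM at ZT12 and 289, 239.5 and 322 scaled CPM at ZT0, with a log2 fold change of -0.14 (SE 0.18) and overlapping libraries. The ratio of Eif4g3 to Eif4g2 in FPKM was 0.54 ± 0.02 at ZT12 and 0.76 ± 0.18 at ZT0 (exact two-sided permutation p = 0.2, adjusted to 0.667 over the 10 ratios computed).

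The subunit-joining and later factors did not pass the test either. EIF5A (ZJQ008786), whose product relieves ribosomes stalled on difficult sequences and carries the hypusine modification, had 501, 461 and 284 scaled CPM at ZT12 and 363, 281 and 474 scaled CPM at ZT0. Both times held high and low libraries, and the log2 fold change was 0.16 (SE 0.28). EIF5B (ZJQ018224), the GTPase that joins the ribosomal subunits, averaged 5.2 ± 1.1 FPKM at ZT12 and 4.2 ± 1.2 FPKM at ZT0, and Eif6 (ZJQ016877), which keeps free large subunits apart, 8.8 ± 1.1 FPKM at ZT12 and 7.9 ± 3.3 FPKM at ZT0.

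Cytosolic elongation factors formed the abundant core of the set. EEF1A2 (ZJQ019715), elongation factor 1-alpha, which delivers aminoacyl-tRNAs to the ribosome, was the fifth most abundant of all gene models by mean FPKM. It had 8314, 7434 and 6331 scaled CPM at ZT12 and 7595, 7034 and 7516 scaled CPM at ZT0, and the ZT0 libraries lay inside the ZT12 range. Its log2 fold change was -0.00 (SE 0.23), with a 95% interval of -0.53 to 0.52. tef2 (ZJQ013148), the translocation factor eEF2, ranked 15 by FPKM and had 7903, 7432 and 7057 scaled CPM at ZT12 and 8478, 7164 and 9006 scaled CPM at ZT0. The libraries again overlapped, the highest exceeding the lowest 1.28-fold, and the log2 fold change was -0.14 (SE 0.23, interval -0.66 to 0.38).

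A further model described as elongation factor 1-alpha carries the next identifier, ZJQ019716, and no symbol. It is 612 bases long by the deposited FPKM, against 2290 for EEF1A2, and could share reads with it. It was less steady than its neighbour, with 1032, 906 and 553 scaled CPM at ZT12 and 844, 1428 and 913 scaled CPM at ZT0, a log2 fold change of -0.35 (SE 0.30). Summed over both models, elongation factor 1-alpha stood at 4734 ± 710 FPKM at ZT12 and 4772 ± 743 FPKM at ZT0. The ratio of this sum to tef2 was 2.26 ± 0.30 at ZT12 and 2.28 ± 0.46 at ZT0 (SD, n = 3 each; exact permutation p = 1).

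The exchange complex that reloads elongation factor 1-alpha with GTP followed in level. Its gamma subunit Eef1g (ZJQ000187) averaged 543 ± 82 FPKM at ZT12 and 453 ± 31 FPKM at ZT0, its beta subunit EEF1B (ZJQ006245) 389 ± 48 FPKM at ZT12 and 346 ± 24 FPKM at ZT0, and its delta subunit EEF1D (ZJQ005507) 281 ± 16 FPKM at ZT12 and 271.5 ± 53.7 FPKM at ZT0. Their log2 fold changes on scaled CPM were 0.15, 0.05 and -0.08, each smaller than its SE of 0.18 to 0.20. The 2 models named for the selenocysteine-specific elongation factor, which serves the few proteins that hold this residue, were near the low end. EEFSEC ZJQ004544 had 2.99, 2.71 and 2.79 scaled CPM at ZT12 and 1.16, 2.26 and 1.99 scaled CPM at ZT0. All ZT12 libraries lay above all ZT0 libraries, at 23 to 73 counts a library, with a log2 fold change of 0.64 (SE 0.44, edgeR adjusted p = 0.809), 0.41 without ZT0 library 1. Its partner model Eefsec ZJQ004543 overlapped, with a log2 fold change of -0.08 (SE 0.53). EEF1E1 (ZJQ011065), named with the elongation factors but in mammals a scaffold of the tRNA ligase complex, averaged 1.2 ± 0.8 FPKM at ZT12 and 1.0 ± 0.5 FPKM at ZT0.

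The mitochondrial elongation factors were far scarcer. TUFM (ZJQ024428), mitochondrial elongation factor Tu, had 25.5, 17.0 and 26.6 scaled CPM at ZT12 and 28.6, 30.0 and 45.03 scaled CPM at ZT0. All ZT12 libraries lay below all ZT0 libraries, as for 6.33% of all tested genes, and the log2 fold change was -0.58 (SE 0.28, edgeR adjusted p = 0.712). Without ZT0 library 3, the highest, it was -0.35. Its exchange factor Ts (ZJQ018730) averaged 6.2 ± 1.4 FPKM at ZT12 and 6.7 ± 0.8 FPKM at ZT0, and the translocase GFM1 (ZJQ014208) 2.7 ± 1.0 FPKM at ZT12 and 2.4 ± 0.4 FPKM at ZT0, both with overlapping libraries.

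The tRNA ligases made up 40 of the 106 members, 26 cytosolic or with no compartment in the name and 14 mitochondrial. Cytosolic models covered 18 entries by amino acid, with a joint glutamate and proline enzyme (GluProRS) counted as 1 entry, and mitochondrial models covered 13. None of the 39 tested ligases passed the test. The median log2 fold change was -0.06 for the 25 tested cytosolic models, with 10 above 0 and 15 below, and 0.05 for the mitochondrial models, with 7 above 0 and 7 below.

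Cytosolic ligases differed widely in level by amino acid when models for the same amino acid were summed. Phenylalanine, whose enzyme has alpha and beta subunits and here 3 models, stood highest, at 28.8 ± 6.7 FPKM at ZT12 and 22.9 ± 1.8 FPKM at ZT0. Asparagine followed among the entries with a single model, at 17.9 ± 4.2 FPKM at ZT12 and 12.7 ± 2.4 FPKM at ZT0. Methionine was lowest, at 2.5 ± 0.2 FPKM at ZT12 and 2.2 ± 0.4 FPKM at ZT0, and none of its libraries reached those of the isoleucine entry, the next lowest, at 4.0 ± 0.6 FPKM at ZT12 and 4.0 ± 0.5 FPKM at ZT0. Neighbours in the middle of this order, from valine (10.7 FPKM) to alanine (14.5 FPKM), overlapped in their libraries. Arginine, glutamine, histidine and threonine lay between them, at 11.6 to 12.9 FPKM.

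**Figure D4:**
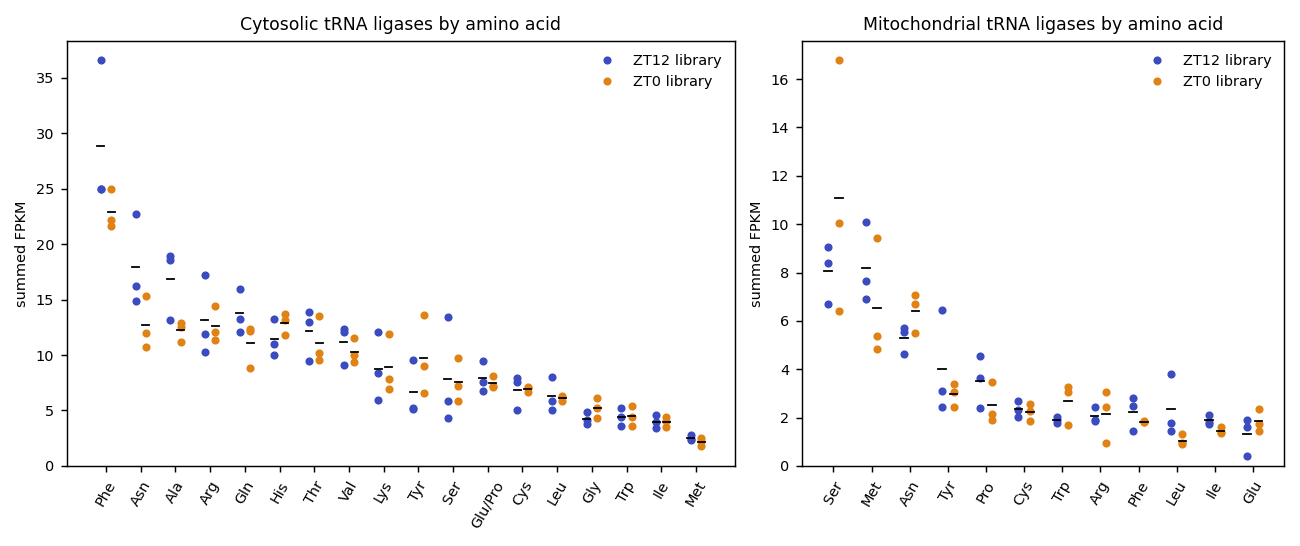
Summed FPKM of the tRNA ligase models for each amino acid in each library (points, ZT12 blue and left, ZT0 orange and right) with the mean of each time (dash), for cytosolic (18 entries) and mitochondrial (12 entries) enzymes, in order of the mean over the 6 libraries. Phenylalanine is highest and methionine lowest among cytosolic entries, and serine is highest among mitochondrial ones, with ZT0 library 2 at 16.8 FPKM.

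In mammals and other animals several ligases join in a complex with the AIMP scaffold proteins. The 8 models for its enzymes (GluProRS, Iars1, LARS1, mars1, QARS1, rars1 and 2 Kars1 models) summed to 69.7, 51.2 and 48.3 FPKM at ZT12 and 49.0, 51.7 and 56.6 FPKM at ZT0. ZT12 library 1 stood above the others. Log2 fold changes of these 8 ran from -0.39 to 0.31, and none passed the test.

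Both members with an unadjusted p under 0.05 were cytosolic ligases. Aars1 (ZJQ016190), an alanine ligase, had 39.6, 23.9 and 34.1 scaled CPM at ZT12 and 18.1, 21.0 and 24.5 scaled CPM at ZT0. ZT12 libraries 1 and 3 were above all ZT0 libraries, and ZT12 library 2 fell just under ZT0 library 3. The log2 fold change was 0.62 (SE 0.26, unadjusted p = 0.0462, edgeR adjusted p = 0.671). The second alanine model, ZJQ018712, described alike and possibly sharing reads, had 31.0, 25.5 and 31.8 scaled CPM at ZT12 and 33.7, 27.3 and 32.2 scaled CPM at ZT0, with a log2 fold change of -0.08 (SE 0.21).

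WARS1 ZJQ021970 was the member with the largest fold change but also one of the lowest levels. This second tryptophan ligase model had 29, 53 and 10 counts at ZT12 and 2, 2 and 6 counts at ZT0. All ZT12 libraries lay above all ZT0 libraries, and the ZT12 libraries also differed widely among themselves. The fitted fold change was 8.41 (log2 3.07, SE 0.84, edgeR adjusted p = 0.331). The log2 value was 2.36 without ZT12 library 2, 3.81 without ZT0 library 3 and 0.35 on log2(FPKM + 1), a scale that understates changes of low genes. Since the model passed the filter only through ZT12, where it is high, its place among the members under an unadjusted p of 0.05 supports nothing. The main tryptophan model, WARS1 ZJQ000552, held most of the FPKM of the pair and had 8.84, 5.13 and 7.22 scaled CPM at ZT12 and 7.12, 9.40 and 8.60 scaled CPM at ZT0, a log2 fold change of -0.24 (SE 0.33). Of the summed tryptophan FPKM, ZJQ021970 made up 5.43, 17.4 and 2.64% at ZT12 and 0.603, 0.388 and 1.46% at ZT0.

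None of the other cytosolic ligases reached an unadjusted p under 0.05. Gars1 (ZJQ006318), for glycine, had 7.24, 5.23 and 6.26 scaled CPM at ZT12 and 7.73, 7.86 and 12.9 scaled CPM at ZT0, so that ZT12 lay wholly below ZT0, with a log2 fold change of -0.60 (SE 0.35, edgeR adjusted p = 0.755), -0.32 without ZT0 library 3. YARS1 (ZJQ023235), for tyrosine, had 29.4, 15.4 and 14.8 scaled CPM at ZT12 and 30.4, 19.5 and 45.7 scaled CPM at ZT0, with overlapping libraries and a log2 fold change of -0.68 (SE 0.40), -1.06 without ZT12 library 1 and -0.32 without ZT0 library 3. NARS (ZJQ013529), for asparagine, had 38.2, 26.2 and 23.4 scaled CPM at ZT12 and 22.0, 24.9 and 19.7 scaled CPM at ZT0, again overlapping, with a log2 fold change of 0.40 (SE 0.26), 0.17 without ZT12 library 1. Of the phenylalanine models, farsa ZJQ005721 reached 19.8 ± 5.4 FPKM at ZT12 and 13.7 ± 2.5 FPKM at ZT0 with overlapping libraries, and the beta subunit Farsb (ZJQ008403) only 3.0 ± 1.8 FPKM at ZT12 and 3.1 ± 1.1 FPKM at ZT0. The remaining cytosolic entries overlapped between times as well. QARS1 (ZJQ003795), for glutamine, averaged 13.8 ± 2.0 FPKM at ZT12 and 11.1 ± 2.0 FPKM at ZT0. Arginine's rars1 (ZJQ017722) averaged 13.1 ± 3.6 FPKM at ZT12 and 12.6 ± 1.6 FPKM at ZT0, with a scaled log2 fold change of -0.06 (SE 0.27). Sars1 (ZJQ003980), for serine, was the most variable of these, at 7.9 ± 4.9 FPKM at ZT12 and 7.6 ± 2.0 FPKM at ZT0, with 13.4 FPKM in ZT12 library 1 and a scaled log2 fold change of -0.05 (SE 0.45). CARS1 (ZJQ012398), for cysteine, LARS1 (ZJQ018291), for leucine, and Iars1 (ZJQ004538), for isoleucine, had log2 fold changes of -0.15, -0.07 and -0.11, each smaller than its SE of 0.24 to 0.26. At the steady end, Tars1 (ZJQ013476), for threonine, and GluProRS (ZJQ001308) had log2 fold changes of 0.03 and -0.03, with SEs of 0.23 and 0.21.

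Mitochondrial ligases were scarcer, 1.6 to 7.4 FPKM per model over the 6 libraries with a median of 2.3 FPKM, and their fold changes were less precise. Only 4 of 14 intervals lay within a 2-fold change either way. LARS2 (ZJQ016899), for leucine, had 4.17, 10.6 and 4.75 scaled CPM at ZT12 and 3.03, 3.63 and 2.83 scaled CPM at ZT0. All ZT12 libraries lay above all ZT0 libraries, but library 2 stood apart, and the log2 fold change of 1.03 (SE 0.48, edgeR adjusted p = 0.704) was 0.49 without it.

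Others were lower at ZT12 by value. Nars2 (ZJQ018496), for asparagine, had 8.26, 6.46 and 7.49 scaled CPM at ZT12 and 10.7, 9.87 and 8.75 scaled CPM at ZT0, with ZT12 wholly below ZT0 and a log2 fold change of -0.40 (SE 0.29, edgeR adjusted p = 0.815). SARS2 (ZJQ001345), for serine and the most abundant mitochondrial ligase model with mars2, had 18.7, 23.4 and 24.5 scaled CPM at ZT12 and 34.9, 48.1 and 22.9 scaled CPM at ZT0. Its libraries overlapped through ZT0 library 3, and the log2 fold change was -0.67 (SE 0.30, unadjusted p = 0.0583), -0.38 without ZT0 library 2. mars2 (ZJQ014686), for methionine, averaged 8.2 ± 1.7 FPKM at ZT12 and 6.6 ± 2.5 FPKM at ZT0. WARS2 (ZJQ023506), for tryptophan, had 5.93, 5.37 and 4.80 scaled CPM at ZT12 and 5.40, 9.18 and 9.84 scaled CPM at ZT0, overlapping through ZT0 library 1, with a log2 fold change of -0.60 (SE 0.36), -0.45 to -0.82 with 1 library left out. The glutamate model ears2 (ZJQ014515) was lowest in ZT12 library 3, with 1.10 scaled CPM against 4.37 to 6.37 scaled CPM in the other libraries, and had a log2 fold change of -0.58 (SE 0.54), -0.16 without that library. Pars2 (proline), TyrRS-m (tyrosine), IARS2 (isoleucine) and FARS2 (phenylalanine) had log2 fold changes of 0.38, 0.33, 0.26 and 0.15, and cars2 (cysteine) and RARS2 (arginine) of -0.04 and -0.16, all smaller than their SEs. Methionine was thus the lowest cytosolic entry and the second highest mitochondrial one, at 2.36 and 7.38 FPKM over the 6 libraries.

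None of the 4 release factor models passed the test, and 2 of their 4 intervals lay within a 2-fold change either way. ERF1 (ZJQ007360), which reads stop codons, had 113, 102 and 83.8 scaled CPM at ZT12 and 115, 98.3 and 118 scaled CPM at ZT0, with overlapping libraries and a log2 fold change of -0.15 (SE 0.19). Its GTPase partner eRF3 (GSPT2, ZJQ020524) averaged 7.1 ± 1.3 FPKM at ZT12 and 6.9 ± 1.0 FPKM at ZT0, with a scaled log2 fold change of -0.08 (SE 0.24). Both models of the mitochondrial release factor MTRF1L averaged near 1 FPKM at both times, 0.83 and 1.29 FPKM at ZT12 and 0.90 and 1.21 FPKM at ZT0, with scaled log2 fold changes of -0.24 and -0.03.

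Poly(A)-binding proteins coat the tail of the mRNA, and the cytoplasmic form also contacts the eIF4 scaffold at the cap. pabpc1a (ZJQ019618), the cytoplasmic form, had 1492, 1278 and 1366 scaled CPM at ZT12 and 1223, 1276 and 1457 scaled CPM at ZT0. The libraries overlapped within a 1.22-fold range, and the log2 fold change was 0.06 (SE 0.18). A further model, pAbp (ZJQ009908), averaged 8.6 ± 1.0 FPKM at ZT12 and 8.6 ± 0.9 FPKM at ZT0. The nuclear forms pabpn1-a (ZJQ017048), at 18.2 FPKM at ZT12 and 19.8 FPKM at ZT0, and pabpn1-b (ZJQ004429), at 4.5 FPKM at ZT12 and 5.1 FPKM at ZT0, did not pass the test. Of the partners, PAIP2 (ZJQ007430), in mammals an inhibitor of the cytoplasmic form, averaged 24.1 ± 2.4 FPKM at ZT12 and 24.9 ± 9.2 FPKM at ZT0, and paip1 (ZJQ005610), an activator, 8.9 ± 2.2 FPKM at ZT12 and 7.4 ± 2.3 FPKM at ZT0.

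Among the proteins that restrain the factors, EEF2K (ZJQ020731), the kinase that inactivates eEF2, had the smallest p. It had 437, 300 and 263 scaled CPM at ZT12 and 304, 220 and 217.5 scaled CPM at ZT0. The overlap rested on ZT0 library 1, and the log2 fold change was 0.43 (SE 0.25, edgeR adjusted p = 0.754), 0.20 without ZT12 library 1. Set against its substrate in FPKM, EEF2K over tef2 was 0.0278, 0.0203 and 0.0187 at ZT12 and 0.0180, 0.0154 and 0.0121 at ZT0. The ratio was higher in all ZT12 libraries, with the smallest p that the exact permutation test can give, 0.1, adjusted to 0.667 over the 10 ratios.

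EIF4EBP2 (ZJQ015202), which in its unphosphorylated state blocks eIF4E, was an abundant regulator, with 298, 381 and 232 scaled CPM at ZT12 and 399, 331 and 428.5 scaled CPM at ZT0. The libraries overlapped, and the log2 fold change was -0.35 (SE 0.23, edgeR adjusted p = 0.794). Its ratio to eif4e1a in FPKM was 2.18 ± 0.33 at ZT12 and 2.35 ± 0.13 at ZT0 (exact permutation p = 0.5). Of the kinases that phosphorylate eIF2 alpha, Eif2ak3 (ZJQ007540), the sensor of endoplasmic reticulum stress, averaged 10.8 ± 2.0 FPKM at ZT12 and 8.5 ± 1.9 FPKM at ZT0. The 2 models of the heme-regulated kinase EIF2AK1 averaged 1.40 and 0.69 FPKM at ZT12 and 0.89 and 0.65 FPKM at ZT0, with scaled log2 fold changes of 0.52 and -0.03. Eif4enif1 (ZJQ024436), the eIF4E transporter, averaged 19.5 ± 2.2 FPKM at ZT12 and 19.8 ± 1.3 FPKM at ZT0. None of the 6 regulators passed the test. The median of their log2 fold changes was 0.10.

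The rule also matched proteins that share a name with elongation factors but act elsewhere. Nelfa, NELFB, NELFCD and Nelf-E encode subunits of negative elongation factor, which pauses RNA synthesis, and EFL1 a GTPase of ribosome assembly. Nelf-E (ZJQ008942) had 26.9, 10.4 and 8.73 scaled CPM at ZT12 and 7.78, 7.43 and 7.26 scaled CPM at ZT0. All ZT12 libraries lay above all ZT0 libraries, but ZT12 library 1 stood far above the rest, and the log2 fold change of 1.04 (SE 0.46, edgeR adjusted p = 0.697) was 0.36 without it. The other subunits had log2 fold changes of -0.07 (Nelfa), 0.08 (NELFB) and -0.33 (NELFCD), and EFL1 0.12.

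Over the whole set, 6 members had all ZT12 libraries above all ZT0 libraries and 3 had them all below, or 5.77 and 2.88% of the tested members, near or under the shares of 5.84 and 6.33% among all tested genes. Among the 6 were Eif4g2, EEFSEC ZJQ004544, WARS1 ZJQ021970, LARS2 and Nelf-E, and the 3 were TUFM, Gars1 and Nars2.

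The members varied with the library more than with the time, and so did tested genes as a whole. The median SD of log2 CPM among libraries of a time was 0.318 for members and 0.499 for all tested genes. Median absolute log2 fold changes were 0.164 and 0.315. The share of all tested genes that were highest in each library was not counted. ZT12 library 1 held the highest scaled CPM of 43 of the 104 tested members, against 7 and 6 in the other ZT12 libraries and 17, 9 and 22 at ZT0 (libraries 1 to 3). The lowest value fell in ZT12 library 2 for 28 members and in ZT12 library 3 for 31. Relative to its own mean in log2 CPM, the median member stood at 0.23, -0.06 and -0.16 at ZT12 (libraries 1 to 3) and at 0.04, -0.09 and 0.09 at ZT0 (libraries 1 to 3). The corresponding values over all tested genes lay between 0.01 and 0.02 in every library. The high standing of ZT12 library 1 was not shared by all roles. It was 0.49 for the eIF3 genes and 0.30 for the cytosolic tRNA ligases, but 0.01 for the ternary complex and scanning factors and -0.04 for the mitochondrial ligases. ZT12 library 1 was also the deepest, with 24368884 counts, and the part of depth in these values was not tested.

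Leaving out that library moved the members' median log2 fold change to -0.12, with 33 above 0 and 71 below, and 0 members were called without it or without any other single library. Of the 27 tested members whose log2 fold change exceeded its SE, 21 had a value that moved by over 1.5 times with 1 library left out, and 0 changed sign. Across libraries, 59 members (56.7%) had a highest scaled CPM less than 2 times the lowest, as did 33.4% of all tested genes.

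**Figure D5:**
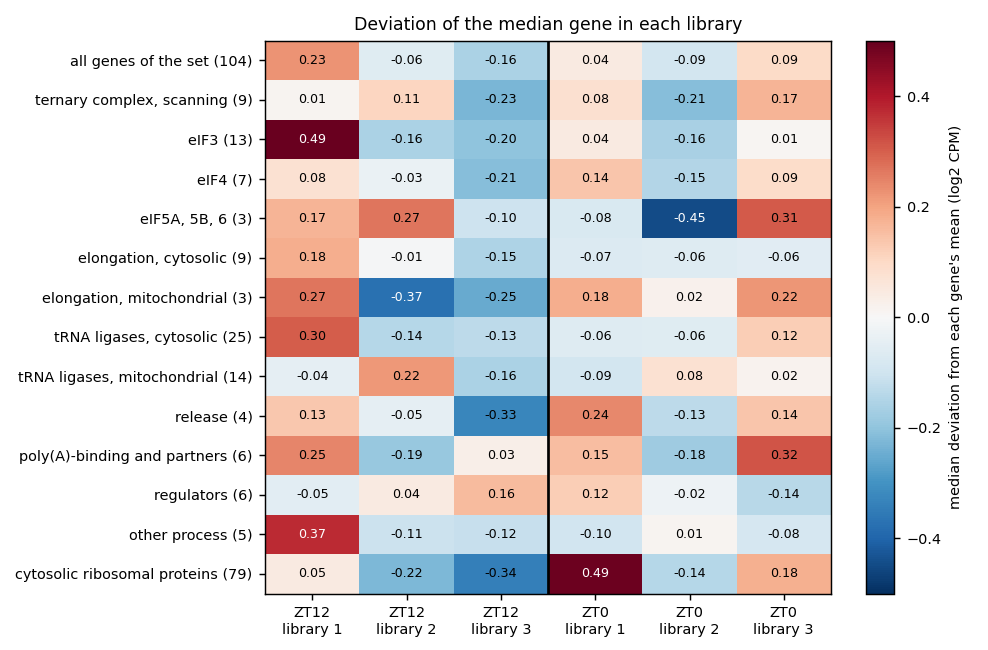
Median deviation of the tested genes of each role from their own mean over the 6 libraries, in log2 CPM on TMM-scaled sizes (colour and printed value), with ZT12 libraries left of the line and ZT0 libraries right of it; the number of genes stands in brackets. ZT12 library 1 is highest for eIF3 (0.49), and the ribosomal protein genes, shown for comparison, peak in ZT0 library 1 (0.49).

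The library pattern of the factors resembled that of the ribosomal proteins in the direction of the medians, but not in their order. The median member and the median ribosomal protein gene deviated in the same direction in every library. The members stood highest in ZT12 library 1, and the ribosomal proteins in ZT0 library 1. In ZT0 library 1 the roles differed in direction. Cytosolic elongation factors stood at -0.07 and cytosolic ligases at -0.06, but the eIF4 genes at 0.14 and the release factors at 0.24. Whether the patterns share a cause was not tested. The 79 tested genes of cytosolic ribosomal proteins deviated by 0.05, -0.22 and -0.34 at ZT12 (libraries 1 to 3), and by 0.49, -0.14 and 0.18 at ZT0 (libraries 1 to 3). Of these, 75 had a log2 fold change below 0, with a median of -0.38 against -0.05 for the translation factors and ligases. None of the 79 passed the test, and 3 had an unadjusted p under 0.05, all lower at ZT12. Ribosomal proteins took 9.16, 7.87 and 7.65% of the counts at ZT12 and 11.5, 8.40 and 9.33% at ZT0, which overlapped (exact permutation p = 0.2).

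Other genes of the pathway showed as little. A list of initiation partners, growth signalling, factor modification and ribosome rescue or mRNA decay held 60 models, of which 57 were tested, 0 passed the test and 0 had an unadjusted p under 0.05. Their median log2 fold change was 0.05, with 30 above 0 and 27 below, and 36 intervals (63.2%) lay within a 2-fold change either way. The helicase EIF4A2 (ZJQ014370), which unwinds the leader for the scanning ribosome, averaged 211 ± 38 FPKM at ZT12 and 233 ± 25 FPKM at ZT0, well above the eIF4 genes of the set. PDCD4 (ZJQ007152), in mammals an inhibitor of that helicase, was more abundant still, at 320 ± 20 FPKM at ZT12 and 317.5 ± 8.4 FPKM at ZT0. The growth kinase gene Mtor (ZJQ008154), which acts on the eIF4E-binding proteins, averaged 8.1 ± 1.5 FPKM at ZT12 and 7.0 ± 0.9 FPKM at ZT0. Examples from the list were chosen after their values were seen.

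Of the 106 members, 24 formed 12 pairs with the same description, for which reads could have been split between near-identical copies, so their single values are uncertain. The second Eif5 model held at most 0.0507% of its pair's FPKM in any library. Summing a pair removed part of its spread in some cases. The valine models (Vars1 ZJQ009363 and ZJQ009954) summed to 9.1 to 12.3 FPKM at ZT12 and 9.4 to 11.5 FPKM at ZT0, a 1.35-fold range over the 6 libraries, against 1.46- and 1.83-fold for the models taken singly. In others the sum stayed wide, and the mitochondrial serine models summed to 6.7 to 9.1 FPKM at ZT12 and 6.4 to 16.8 FPKM at ZT0. That sum had a 2.61-fold range over the 6 libraries, against 2.68- and 3.86-fold for the models taken singly.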

How the data were processed

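RNA from coelomocytes was sequenced in 6 libraries, 3 labelled ZT12 and 3 labelled ZT0. The submitters' processing notes list fastp, HISAT2 and HTSeq. Tool versions, genome build, annotation and strand setting were not given in the sources used here, so reads of genes that overlap on opposite strands cannot be told apart. The authors deposited whole-number counts per gene model, not normalized, and FPKM values per library. All per-sample columns were used (0 left out).

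Members were found by the description rule and sorted into roles by name. Members, roles and lists were chosen with earlier results of these data known. The text names members by 4 criteria: tef2, in each role the 3 highest mean FPKM and the 3 smallest p (roles of 6 or fewer in full), the most abundant tRNA ligase per amino acid, and genes whose libraries separate by time. Any other gene named was chosen after its values were seen. A single member that these criteria name is counted in the totals but is not reported here.

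Counts were tested in R 4.3.3 with edgeR 4.0.16 on the whole table: filterByExpr (minimum count 10, minimum total count 15), TMM, glmQLFit with legacy = FALSE and glmQLFTest, Benjamini-Hochberg adjustment over 18456 genes, threshold 0.05. Standard errors were the size of the log2 fold change over the square root of F, and 95% intervals use the fit's t distribution. Deviations use log2 CPM with a prior count of 2. Ratios and shares were compared by exact two-sided permutation tests. The script was tested on simulated data. DESeq2 1.42.0, limma 3.58.1 (voom, and trend on log2 FPKM + 1 or + 0.1), other scalings, no filter and left-out libraries were alternatives.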

Additional observations from a re-analysis of the deposited data

How the results depend on the processing

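Across 15 alternatives (scaling, filter, tool, unit, replicate block, left-out libraries), 0 members were called in any. The naming criteria chose 80 tested members, and other members given above were not among these. Of 1200 values of the 80, 105 had the opposite sign to the main value, 53 of them with a library left out. In all alternatives 49 of the 80 kept their sign. Over all 104 tested members, 52 kept their sign in every alternative and 52 changed it in at least 1. None of the sign changes concerned a log2 fold change larger than its SE. Over all genes, 24 were called in the main analysis, 264 by DESeq2, 0 by limma-voom, 10 by edgeR with legacy = TRUE, and 0 to 24 with 1 library left out (0 without ZT12 replicate 1 or without ZT12 replicate 3, and 15 without ZT0 replicate 3). Members at an unadjusted p under 0.05 numbered 2 in the main analysis, 4 with plain library sizes, 1 with no filter, 4 by DESeq2, 0 by limma-voom, 4 on log2(FPKM + 1), 5 on log2(FPKM + 0.1) and 1 to 4 with 1 library left out. The median of the regulators, 0.10 in the main analysis, was 0.22 with plain library sizes and -0.0356 to 0.21 with 1 library left out, lowest without ZT12 replicate 3. The members' median, -0.05, was 0.07 with plain library sizes and -0.12 to 0.06 with 1 library left out. The cause of these shifts was not tested. No pairing by replicate number was seen: deviations of same-numbered libraries correlated at -0.048, 0.017 and -0.001. Differently numbered libraries of the other time correlated at -0.12 to 0.131. Such weak correlations cannot show that no pairing exists. With the replicate number as a block, 13 genes and 0 members were called, and 1 member had an unadjusted p under 0.05. Members of low level limit the set: mitochondrial ligases and the second tryptophan model rest on few counts, and at 3 libraries per time their intervals are wide.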

Other observations

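The histidine ligase models showed opposite patterns over the libraries. Hars1 (ZJQ018433) had 3.65, 7.73 and 8.08 FPKM at ZT12 and 7.07, 2.59 and 5.88 FPKM at ZT0, and hars (ZJQ018518) had 9.61, 2.29 and 2.89 FPKM at ZT12 and 4.71, 11.1 and 7.32 FPKM at ZT0. Hars1 was thus low in the libraries in which hars was high, ZT12 library 1 and ZT0 library 2. Their sum was narrower, 10.02 to 13.3 FPKM at ZT12 and 11.8 to 13.7 FPKM at ZT0. Whether the models are separate genes, or parts or alleles of a single gene, was not tested.

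Other pairs also shifted in their shares between libraries. The second lysine model (Kars1 ZJQ005816) made up 36.0, 53.1 and 43.9% of its pair's FPKM at ZT12 and 36.4, 33.1 and 26.5% at ZT0. The second alanine model (ZJQ018712) made up 30.1, 37.0 and 33.8% at ZT12 and 50.6, 41.5 and 41.8% at ZT0, and its share was lower in all ZT12 libraries than in any ZT0 library. The selenocysteine factor pair separated too, with EEFSEC ZJQ004544 at 55.3, 53.0 and 49.7% of its pair's FPKM at ZT12 and 42.7, 43.0 and 36.3% at ZT0, higher in all ZT12 libraries. The second model of the heme-regulated kinase (EIF2AK1 ZJQ016554) made up 49.7, 23.4 and 32.8% at ZT12 and 35.4, 34.98 and 60.2% at ZT0, with overlapping libraries. The tryptophan pair, given above, separated as well, but through WARS1 ZJQ021970. That model passed the filter on low counts through ZT12 alone, so its separation supports nothing. In the pairs of the 12 not listed in this paragraph, and in the lysine pair, the shares overlapped between times. All these pairs were picked from the 12 after their values were seen, so no test is given.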
